A study of Homo sapiens with 6 samples.

Results

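Histone genes were examined in NCI-H1703 cells, an established human cell line labelled as a squamous cell carcinoma of the lung. The members were the genes whose symbol is that of a linker histone (H1), of a numbered core histone gene (H2AC, H2BC, H3C, H4C and H4-16), of an H3 variant, or of the variants H2AZ1, H2AZ2, H2AX, H2AJ, MACROH2A1, MACROH2A2 and H2BE1. This rule found 66 of 17534 genes, without using any measured value. They were divided by symbol into 51 replication-dependent genes (H1-1 to H1-6 and the numbered core histone genes) and 15 replacement genes. By that rule alone H3-2 and H3-4 stand in the replacement class, and whether they act as replacement genes was not examined.

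RNA sequencing compared 3 libraries of cells with the genotype Sh-PPM1G, which carry a short hairpin RNA against PPM1G, with 3 control libraries. PPM1G encodes a nuclear serine/threonine phosphatase. The controls carry the genotype label Sh-NC, whereas the study's own design text calls them wild-type. Whether the knockdown line was 1 clone and how many hairpins it got is not given in the sources used here, and nothing says that libraries of a group came from separate cultures.

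Histones package DNA into nucleosomes, each an octamer of H2A, H2B, H3 and H4, and H1 binds the linker between them. Replication-dependent genes supply the bulk of histone protein in S phase. Most have no introns, sit in clusters, and give mRNAs that end in a conserved stem-loop in place of a poly(A) tail. The stem-loop binding protein SLBP carries these mRNAs through processing and translation. Replacement genes are expressed through the cell cycle, mostly carry introns and poly(A) signals, and supply variants that are placed in chromatin outside replication.

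The stem-loop is shown because it separates the mRNA types that the classes stand for. It was searched in GENCODE version 29 transcripts by the letters of the histone consensus, not as any hairpin. The match held a stem of 6 base pairs around a loop of 4 bases, with a mismatched pair allowed in the stem. All 6 pairs matched in the members found, and capitals mark the arms of the stem. The sequences found in members were these, each named by members that carry it.
H2AC6, H2AC18, H2BC18 and H2BC21: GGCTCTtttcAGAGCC
H2BC4 and H2BC5: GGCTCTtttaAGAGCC
H4-16 and H4C8: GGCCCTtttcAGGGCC
H4C15: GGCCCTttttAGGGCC
H2AX: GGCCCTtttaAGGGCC
H3C6: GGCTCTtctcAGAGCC
Among genes with at least 16 annotated bases after the stop codon, it stood in 25 of 29 replication-dependent members, in 2 of 13 replacement members and in 28 of 19073 other protein-coding genes (0.147%). The replacement members were H2AX, which is known to give mRNAs of both kinds, and H3-4. The other protein-coding genes may include histone genes that are not members, such as H2AC7 and H3C15. The annotation of the other 22 replication-dependent members was too short for the search, so they were not classified by it. These included H1-2 and H2BC12, whose GENCODE transcripts end at the stop codon.

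PPM1G mRNA was measured first, as a check of the labels. It stood at 182, 194 and 188 CPM (counts scaled by library total and TMM factor) in the PPM1G shRNA libraries, against 333, 308 and 324 CPM in the control libraries. The groups did not overlap, and the log2 fold change was −0.77 (SE 0.03, edgeR quasi-likelihood adjusted p = 3.3e-20). Library totals were 31337553 to 35838246 counts. Of 13060 genes tested, 82.9% passed an adjusted p of 0.05, with 41.5% rising and 41.3% falling, and 24.2% changed by at least 2-fold. The median log2 fold change over all genes tested was 0.01. Every count of histone genes below is read against this background.

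All 6 proliferation marker genes examined (MKI67, PCNA, CCNA2, CDK1, TOP2A and MCM2) fell, and their summed level was 196 to 199 CPM in PPM1G shRNA libraries, against 1460 to 1572 CPM in control libraries. Their part in the histone results was not tested, and fewer cells in S phase and less RNA per cell cannot be told apart in these bulk samples. Of 6 squamous lung markers in the table, 3 reached 1 CPM, and KRT6A, KRT14 and DSG3 were near 0. The 3 tested ones, TP63, SOX2 and PERP, fell, and the markers summed to 85.7 to 91.4 CPM in PPM1G shRNA and 136 to 145 CPM in control libraries. KRT5 was not analysed here. Epithelial markers summed to 299 to 319 CPM in PPM1G shRNA and 316 to 338 CPM in control libraries, with 3 of 4 at 1 CPM or more. Among them KRT8 fell by 0.18 and KRT18 rose by 0.16 on the log2 scale, and EPCAM did not pass. CDH1 was low in both groups, at 0.31 CPM on average in each, and did not pass. Of the immune markers, CD68 made up nearly all of a sum of 551 to 583 CPM in PPM1G shRNA and 1245 to 1301 CPM in control libraries, and PTPRC, CD3E and LYZ were near 0. The 4 fibroblast markers, led by the collagen gene COL1A1, summed to 354 to 362 CPM in PPM1G shRNA and 159 to 176 CPM in control libraries, while COL1A2 fell by 0.69 on the log2 scale. The 3 endothelial markers summed to 3.18 to 4.21 CPM in PPM1G shRNA and 5.02 to 7.02 CPM in control libraries, with PECAM1 falling by 2.30 and VWF rising by 2.29 on the log2 scale. The part of these markers in the histone results was not tested either.

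Histone genes moved in both directions, and within H2A, H2B and H3 some abundant genes rose while others fell. Of the 66 members, 28 passed the filter on low counts and 38 did not. Of the 28, 22 changed (78.6%, against 82.9% of all genes tested), of which 11 rose and 11 fell. Groups did not overlap for 23 of the 28, against 83.7% of all genes tested. The share of members that changed was near that of all genes.

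Among replication-dependent genes 16 of 51 could be tested. Of these, 7 rose and 5 fell, 5 of each by at least 2-fold (11.8% of all genes rose and 12.4% fell that far), and the median log2 fold change was 0.45. Among replacement genes 12 of 15 could be tested. Of these, 4 rose and 6 fell, 2 and 3 of these past 2-fold, and the median was −0.15. Passing the filter can itself follow from a change. H2AC18, H2BC18, H4-16, H4C15 and MACROH2A2 passed only through the PPM1G shRNA libraries, and H2AC17 and H3C2 only through the control libraries. Among members that met the minimum in both groups, 5 rose and 3 fell of 10 replication-dependent genes, and 3 rose and 6 fell of 11 replacement genes. At least 2-fold were 3 rises and 3 falls of these replication-dependent genes, and 1 rise and 3 falls of these replacement genes. The medians of these members were −0.04 and −0.20, so the positive median of the replication-dependent class was not kept.

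**Figure D1:**
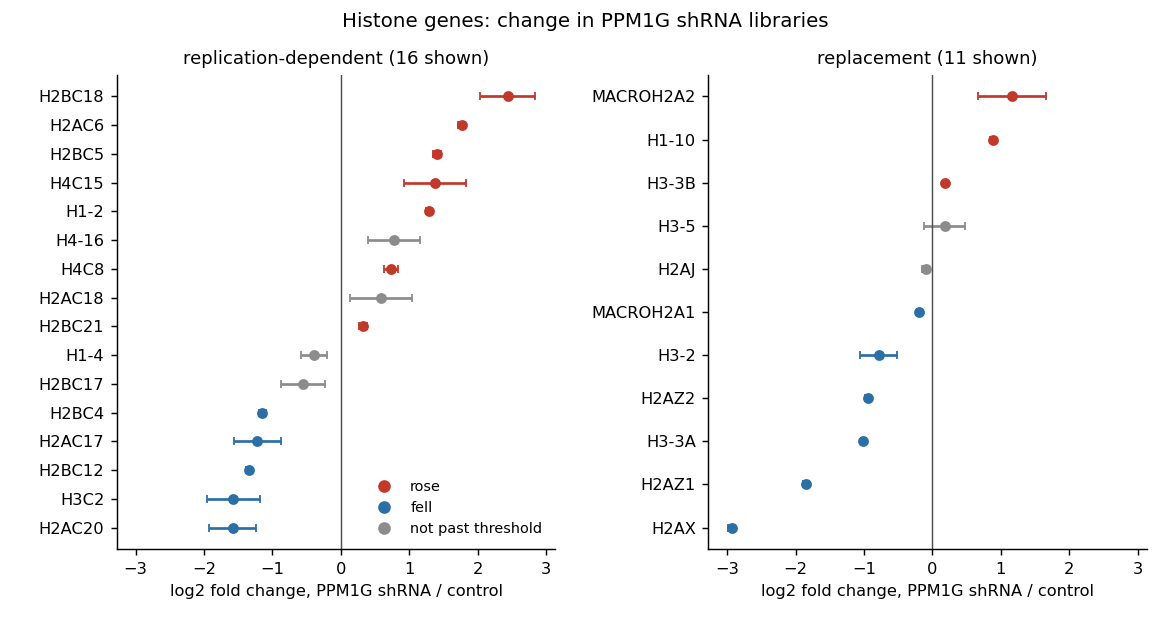
Log2 fold change of PPM1G shRNA over control libraries for the tested histone genes reported here, replication-dependent genes left and replacement genes right, with bars of 1 SE. Red points rose, blue points fell and grey points did not pass an adjusted p of 0.05 (edgeR). The points run from 2.43 for H2BC18 to −1.58 for H2AC20 on the left, and from 1.17 for MACROH2A2 to −2.93 for H2AX on the right. H2BC18 and MACROH2A2 passed the filter on low counts only through the PPM1G shRNA libraries, where they were higher.

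Levels were compared between genes per length, over the members reported here. In the authors' deposited FPKM, which scale counts by gene length and library total, H1-2 stood at 463 ± 8.5 FPKM in PPM1G shRNA libraries (SD, n = 3), followed by H3-3B at 246 ± 5.8 and H2AC6 at 149 ± 3.1 FPKM. H2BC12 at 94.1 ± 1.7 and H1-10 at 93.2 ± 2.6 FPKM came next and did not differ beyond their spread. The order in control libraries was another one. There H2BC12 averaged 223 ± 3.8 FPKM, followed by H3-3B at 202 ± 3.4, H1-2 at 177 ± 7.5 and H2AZ1 at 156 ± 9.8 FPKM. H2AC6 stood at 40.8 ± 3.7 FPKM in control libraries. The deposited FPKM rest on 1 length per gene, such as 519 bases for H2AC6 and 2426 bases for H2BC4, so the order depends on those lengths.

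**Figure D2:**
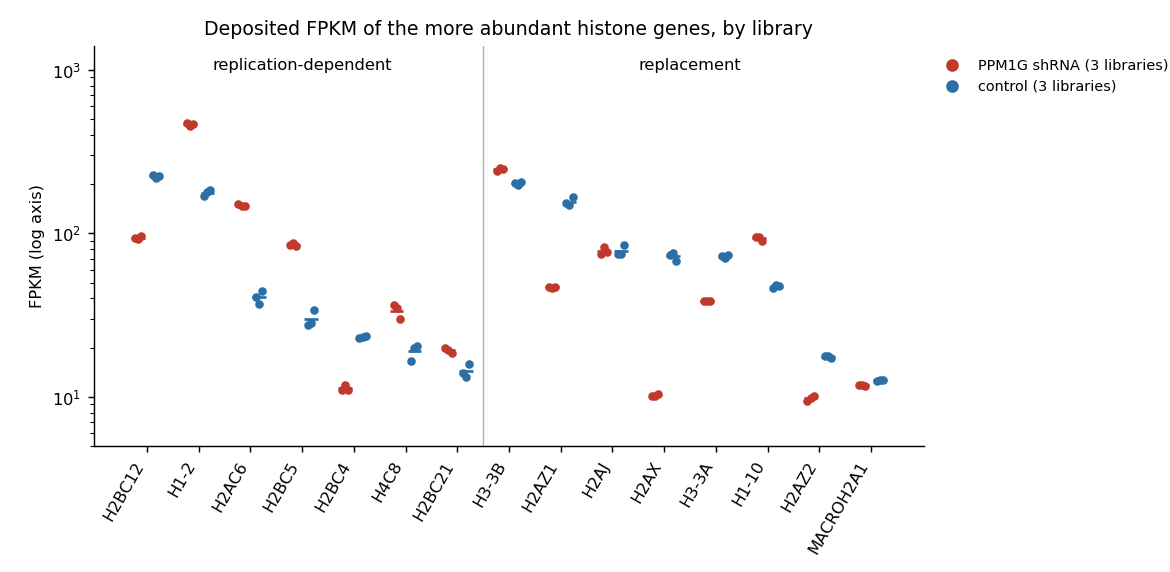
Deposited FPKM on a log axis for the more abundant replication-dependent (left) and replacement (right) histone genes. Points are libraries, PPM1G shRNA in red and control in blue, 3 each, and short lines are means. H1-2 averages 463 FPKM in PPM1G shRNA and 177 FPKM in control libraries, and H2AJ averages 78.2 FPKM in both groups.

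The abundant linker histone genes H1-2 and H1-10 rose. H1-2 (chromosome 6, 26055740 to 26056470 on GRCh38), a replication-dependent somatic H1, had 333, 320 and 327 CPM in PPM1G shRNA libraries, against 128, 135 and 140 CPM in control libraries. All PPM1G shRNA libraries lay above all control libraries, with a log2 fold change of 1.28 ± 0.03 SE (edgeR adjusted p = 2.2e-26). H1-10 (chromosome 3), a replacement H1 expressed from a gene outside the clusters, had 140, 138 and 132 CPM in PPM1G shRNA libraries, against 72.6, 75.2 and 74.6 CPM in control libraries. It rose by 0.88 ± 0.04 SE (edgeR adjusted p = 3.2e-20), again without overlap, and it overlaps the antisense gene H1-10-AS1, so its level is uncertain because no strand setting is given.

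H1-4, another somatic H1, did not pass. It had 2.32, 2.76 and 2.13 CPM in PPM1G shRNA libraries, against 2.68, 3.21 and 3.60 CPM in control libraries, and the groups overlapped. Its log2 fold change of −0.40 ± 0.19 SE missed the threshold (edgeR adjusted p = 0.052). H1-1, H1-3 and H1-6 were too low to test, and the oocyte linker histone gene H1-8 had no count in any library.

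The replacement H2A genes held the deepest falls of the whole set. H2AX (chromosome 11, 119093874 to 119095465), the variant that is phosphorylated around DNA breaks, had 15.6, 15.6 and 16.02 CPM in PPM1G shRNA libraries, against 122, 125 and 112 CPM in control libraries. Control libraries stood 7.61-fold above PPM1G shRNA libraries, and H2AX fell by 2.93 on the log2 scale (SE 0.05, edgeR adjusted p = 8.3e-31). H2AX overlaps DPAGT1, a gene of N-glycan assembly, which had 70.8 ± 0.84 CPM in PPM1G shRNA and 80.6 ± 3.0 CPM in control libraries (log2 fold change −0.19 ± 0.04 SE).

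H2AZ1 (chromosome 4, 99948088 to 99950275) and H2AZ2 (chromosome 7) encode the near-identical forms of H2A.Z, a variant found at promoters. H2AZ1 had 39.5, 38.7 and 39.2 CPM in PPM1G shRNA libraries, against 137, 133 and 150 CPM in control libraries. It fell by 1.84 ± 0.05 SE (edgeR adjusted p = 8.6e-27) with no overlap. H2AZ2 had 57.8, 60.1 and 61.5 CPM in PPM1G shRNA libraries, against 116, 115 and 113 CPM in control libraries. Its fall of 0.94 ± 0.04 SE was the smaller of the pair (edgeR adjusted p = 2.3e-20). The count ratio of H2AZ1 to H2AZ2 was 0.654 ± 0.025 in PPM1G shRNA and 1.22 ± 0.095 in control libraries (SD, n = 3 each). The exact permutation p of 0.10 is the smallest that 3 against 3 libraries allow, and it was 0.14 after Benjamini-Hochberg adjustment over the 7 gene ratios computed. These pairs were chosen after their values were seen.

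The macroH2A genes encode H2A variants with a large extra domain, known from silenced chromatin. MACROH2A1 (chromosome 5) had 147, 144 and 144 CPM in PPM1G shRNA libraries, against 165, 167 and 168 CPM in control libraries. The groups stood apart, but the fall was small, at 0.20 ± 0.03 SE on the log2 scale (edgeR adjusted p = 1.2e-06). MACROH2A2 (chromosome 10) was far lower, at 0.371, 0.297 and 0.646 CPM in PPM1G shRNA libraries and 0.117, 0.233 and 0.232 CPM in control libraries. It rose by 1.17 ± 0.49 SE (edgeR adjusted p = 0.030), a call that was lost without PPM1G shRNA replicate 3 (edgeR adjusted p = 0.23), without control replicate 1 (edgeR adjusted p = 0.13) and in DESeq2 (adjusted p = 0.10). The gene passed the filter on low counts only through the PPM1G shRNA libraries, where it was higher. MACROH2A2 also overlaps AIFM2, which is far more abundant, at 50.5 ± 0.71 CPM in PPM1G shRNA and 41.0 ± 3.6 CPM in control libraries. H2AJ, an H2A variant known to accumulate in senescent cells, had 44.9, 49.4 and 46.2 CPM in PPM1G shRNA libraries, against 48.1, 47.8 and 54.7 CPM in control libraries. Its groups overlapped and it did not pass (log2 fold change −0.10 ± 0.05 SE, edgeR adjusted p = 0.081).

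Replication-dependent H2A was nearly all H2AC6, and it moved against most replacement H2A genes. H2AC6 (chromosome 6, 26124172 to 26124690) had 76.4, 73.4 and 73.6 CPM in PPM1G shRNA libraries, against 21.97, 19.8 and 23.9 CPM in control libraries. It rose by 1.76 ± 0.05 SE on the log2 scale, 3.40-fold, with no overlap (edgeR adjusted p = 7.3e-24). Other clustered H2A genes were far lower. H2AC20 (chromosome 1) had 0.278, 0.513 and 0.350 CPM in PPM1G shRNA libraries, against 1.11, 1.37 and 0.987 CPM in control libraries. H2AC17 (chromosome 6) had 0.556, 0.567 and 0.242 CPM in PPM1G shRNA libraries, against 0.904, 1.11 and 1.16 CPM in control libraries. Neither overlapped between groups, and both fell, by 1.58 ± 0.34 SE and 1.22 ± 0.35 SE (edgeR adjusted p = 0.00010 and 0.0019). H2AC17 passed the filter on low counts only through the control libraries, where it was higher. H2AC18 did not pass (log2 fold change 0.58 ± 0.45 SE, edgeR adjusted p = 0.23).

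The make-up of H2A-type counts differed between the groups. H2AC6 took 19.4% ± 0.44 of the counts of all H2A-type members in PPM1G shRNA and 3.55% ± 0.29 in control libraries. H2AX took 4.11% ± 0.070 in PPM1G shRNA and 19.5% ± 1.3 in control libraries, and MACROH2A1, the most abundant of them in counts, took 37.9% ± 0.38 in PPM1G shRNA and 27.0% ± 0.20 in control libraries. Counts grow with gene length, which the FPKM take as 12741 bases for MACROH2A1 and 519 bases for H2AC6, so these are not shares of molecules. Per length MACROH2A1 stood at 11.8 FPKM in PPM1G shRNA and 12.6 FPKM in control libraries, against 149 and 40.8 FPKM for H2AC6. In summed CPM, replication-dependent H2A stood at 75.9 ± 1.9 in PPM1G shRNA and 24.7 ± 1.8 in control libraries, and replacement H2A at 307 ± 1.7 in PPM1G shRNA and 592 ± 5.7 in control libraries. These sums are descriptions and carry no test.

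H2B genes diverged within the replication-dependent class. H2BC12 (chromosome 6, 27138293 to 27146858) had 80.9, 79.04 and 81.98 CPM in PPM1G shRNA libraries, against 208, 201 and 206 CPM in control libraries. This H2B gene, the most abundant in control libraries, fell by 1.35 ± 0.03 SE on the log2 scale without overlap (edgeR adjusted p = 2.0e-26). H2BC5 (chromosome 6, 26158121 to 26171349) went the other way, with 108, 112 and 106 CPM in PPM1G shRNA libraries, against 37.4, 38.8 and 46.5 CPM in control libraries. It rose by 1.41 ± 0.06 SE (edgeR adjusted p = 6.6e-15) and was the most abundant H2B gene in counts in PPM1G shRNA libraries. Per length H2BC12 stayed above it there, at 94.1 ± 1.7 FPKM against 85.1 ± 2.3 FPKM for H2BC5. H2BC12 overlaps H4C9, which had no count in PPM1G shRNA libraries and 1 in control libraries, and H2BC5 overlaps H2BC6-AS1.

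H2BC4 (chromosome 6, 26113170 to 26123926) had 25.9, 27.8 and 25.7 CPM in PPM1G shRNA libraries, against 57.7, 58.6 and 59.6 CPM in control libraries. It fell by 1.15 ± 0.05 SE with no overlap (edgeR adjusted p = 7.4e-20). H2BC21 (chromosome 1, 149884459 to 149886682) had 43.1, 41.7 and 39.7 CPM in PPM1G shRNA libraries, against 32.1, 30.6 and 36.7 CPM in control libraries. Its rise was small, at 0.32 ± 0.06 SE (edgeR adjusted p = 1.1e-05), and the groups did not overlap. H2BC18 (chromosome 1) was a low gene, with 45, 34 and 45 counts in PPM1G shRNA libraries, against 5, 4 and 13 counts in control libraries. It rose by 2.43 ± 0.40 SE (edgeR adjusted p = 2.0e-06), and it overlaps FCGR1A, an Fc receptor gene of myeloid cells. H2BC18 passed the filter on low counts only through the PPM1G shRNA libraries, where it was higher. H2BC17 did not pass (−0.56 ± 0.32 SE, edgeR adjusted p = 0.11), and its PPM1G shRNA replicate 3, at 0.377 CPM, lay far below the other PPM1G shRNA libraries at 1.36 and 1.16 CPM.

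H2BC12 supplied 31.1% ± 1.0 of all H2B counts in PPM1G shRNA and 60.4% ± 1.5 in control libraries, and H2BC5 supplied 41.8% ± 0.62 in PPM1G shRNA and 12.03% ± 1.1 in control libraries. The sum over replication-dependent H2B genes changed less than its leading members, with 259 ± 3.8 CPM in PPM1G shRNA and 339 ± 11 CPM in control libraries. The count ratio of H2BC5 to H2BC4 was 4.10 ± 0.080 in PPM1G shRNA and 0.697 ± 0.072 in control libraries, 5.90-fold apart (exact permutation p = 0.10, the smallest possible, and 0.14 after Benjamini-Hochberg adjustment). This pair was chosen after H2BC5 was seen to rise and H2BC4 to fall. The ratio therefore restates those changes, and its p adds no support to them. The coding sequences of clustered H2A and H2B genes are nearly identical within a family, so reads may have been split or lost between them, and levels of single genes are uncertain to that extent.

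**Figure D3:**
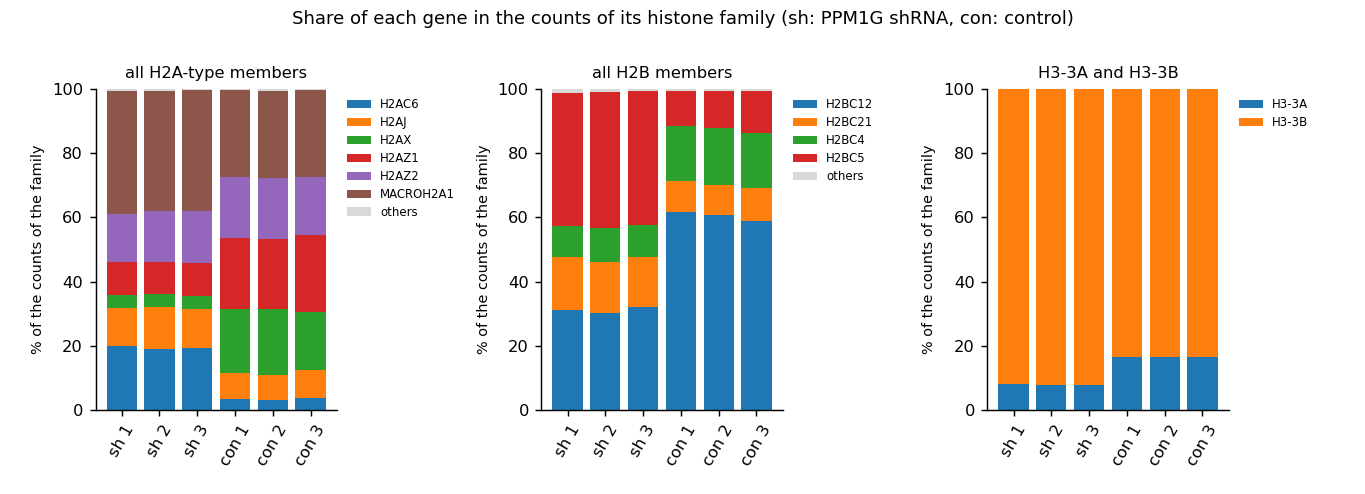
Share of each leading gene in the counts of all H2A-type members, of all H2B members and of the H3.3 genes, in % on a linear axis, with 1 bar for each PPM1G shRNA (sh) and control (con) library. H2AC6 takes 19.4% of H2A-type counts in PPM1G shRNA and 3.55% in control libraries, H2BC5 takes 41.8% of H2B counts in PPM1G shRNA and 12.03% in control libraries, and H3-3A takes 7.95% of H3.3 counts in PPM1G shRNA and 16.5% in control libraries.

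H3 RNA came almost wholly from the H3.3 genes H3-3A and H3-3B, which encode the same replacement protein from separate genes. H3-3B (chromosome 17, 75776434 to 75779779) had 627, 653 and 649 CPM in PPM1G shRNA libraries, against 565, 554 and 575 CPM in control libraries. It rose by 0.19 ± 0.03 SE with no overlap (edgeR adjusted p = 1.8e-07). H3-3A (chromosome 1, 226061831 to 226072019) had 55.8, 55.2 and 55.7 CPM in PPM1G shRNA libraries, against 112, 109 and 114 CPM in control libraries. It fell by 1.01 ± 0.04 SE (edgeR adjusted p = 3.2e-21), and it overlaps the non-coding gene H3-3A-DT. H3-3A supplied 7.95% ± 0.19 of H3.3 counts in PPM1G shRNA and 16.5% ± 0.065 in control libraries, while replacement H3 summed to 701 ± 13 CPM in PPM1G shRNA and 680 ± 13 CPM in control libraries. Processed copies of the H3.3 genes elsewhere in the genome may share their reads.

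The other H3 genes were low. H3C2, a clustered H3 gene on chromosome 6, had 9, 9 and 13 counts in PPM1G shRNA libraries, against 38, 20 and 32 counts in control libraries. It fell by 1.57 ± 0.39 SE with no overlap (edgeR adjusted p = 0.00043) and was the only clustered H3 gene of 11 that could be tested. H3C2 passed the filter on low counts only through the control libraries, where it was higher, so its call is not independent of the filter. H3-2, which RefSeq lists as H3-7, had 1.33, 0.648 and 1.18 CPM in PPM1G shRNA libraries, against 1.69, 1.98 and 1.74 CPM in control libraries. It fell by 0.78 ± 0.27 SE (edgeR adjusted p = 0.0088) without overlap, but not without PPM1G shRNA replicate 2 (edgeR adjusted p = 0.077). H3-5, an intronless variant gene resembling H3-3B, overlapped between groups and did not pass (0.18 ± 0.30 SE, edgeR adjusted p = 0.58).

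H4 has no replacement gene among the members, and H4C8 supplied most of its RNA. H4C8 (chromosome 6, 26285126 to 26285534) had 14.3, 13.8 and 11.9 CPM in PPM1G shRNA libraries, against 7.03, 8.45 and 8.62 CPM in control libraries. It rose by 0.73 ± 0.10 SE without overlap (edgeR adjusted p = 6.9e-08). H4C15 (chromosome 1) had 68, 18 and 38 counts in PPM1G shRNA libraries, against 17, 21 and 9 counts in control libraries, and the groups overlapped. It rose by 1.37 ± 0.45 SE (edgeR adjusted p = 0.0089), but without PPM1G shRNA replicate 1 it did not pass (edgeR adjusted p = 0.14), and its locus overlaps the histone genes H2AC19 and H3C15. H4C15 passed the filter on low counts only through the PPM1G shRNA libraries. H4-16, an H4 gene on chromosome 12, did not pass (0.77 ± 0.38 SE, edgeR adjusted p = 0.057).

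Most replication-dependent genes gave almost no reads. The 7 leading genes H1-2, H2BC12, H2BC5, H2AC6, H2BC4, H2BC21 and H4C8 held 97.8% to 98.8% of the counts of the class in each library. The 35 untested genes summed to 149 counts over the 3 PPM1G shRNA libraries and 145 counts over the 3 control libraries, and none exceeded 15 counts in any library. Of these 35 genes, 25 had at most 5 counts over all 6 libraries, so that differences were not detectable at this depth. The untested genes included 10 of 11 H3C genes, 10 of 16 H2B genes, 7 of 10 H4 genes, 5 of 9 H2A genes and 3 of 5 H1 genes. Among them H3C1 had 4, 1 and 2 counts in PPM1G shRNA libraries, against 9, 15 and 9 counts in control libraries, and H4C2 had 4, 8 and 5 counts in PPM1G shRNA libraries, against 2, 1 and 0 counts in control libraries. These genes were singled out after their values were seen, and they carry no test. The untested replacement genes were H1-8, H2BE1 (H2BK1 in RefSeq) and the testis H3 gene H3-4.

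The kit is named in the labels as an mRNA kit, and whether it selects poly(A) RNA is not given in the sources used here. How much of the stem-loop mRNA the libraries hold was not tested. Of the tested replication-dependent genes 5 of 16 have several RefSeq transcripts (H2BC12, H2BC5, H2BC4, H2BC18 and H4C15), against 2 of 35 untested ones. In GENCODE, transcripts of H2AC6, H2BC21 and H4C8 run for up to 1128, 1729 and 1655 bases past the stem-loop, and so do those of untested genes such as H3C6 and H2BC9, for up to 1862 and 1640 bases. H1-2, the highest of the class in PPM1G shRNA libraries, has neither trait: it has 1 RefSeq transcript, and its GENCODE transcript ends at the stop codon. As a class, replication-dependent genes summed to 681 ± 10.47 CPM in PPM1G shRNA and 512 ± 17 CPM in control libraries, a description with no test. H1-2 made up 327 ± 6.7 CPM of this sum in PPM1G shRNA and 134 ± 5.7 CPM in control libraries. Its gap was wider than that of the class, so the other members together were not higher in PPM1G shRNA libraries.

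Many H2A and H2B genes lie head to head and share the sequence between their starts, which bears on H2AC6 and H2BC4 because these neighbours moved apart. The intergenic sequences of this pair and of H2AC20 and H2BC21 are given from RefSeq on GRCh38.p14, on the plus strand. In each, the H2B gene starts at the left end and runs leftward on the minus strand, and the H2A gene starts at the right end. Capitals mark CCAAT (or ATTGG), the octamer ATTTGCAT (or ATGCAAAT) and TATAAA (or TTTATA).
H2BC4 and H2AC6, chr6:26123927-26124171: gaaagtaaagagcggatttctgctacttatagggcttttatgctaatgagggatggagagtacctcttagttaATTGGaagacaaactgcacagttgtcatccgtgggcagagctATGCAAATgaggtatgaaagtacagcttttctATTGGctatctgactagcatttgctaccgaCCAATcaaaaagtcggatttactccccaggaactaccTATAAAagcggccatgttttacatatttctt
H2BC21 and H2AC20, chr1:149886683-149886917: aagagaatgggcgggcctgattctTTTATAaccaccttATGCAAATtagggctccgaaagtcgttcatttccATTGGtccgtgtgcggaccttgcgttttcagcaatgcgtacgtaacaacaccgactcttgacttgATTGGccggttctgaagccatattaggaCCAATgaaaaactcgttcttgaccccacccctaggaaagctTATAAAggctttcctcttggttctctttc
Between these starts lie 245 and 235 bases. The first sequence holds 3 CCAAT matches, 1 octamer and 1 TATAAA match, and the second 3, 1 and 2.

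H2AC6 rose and H2BC4 fell across the 245 bases that part them. The count ratio of H2AC6 to H2BC4 was 2.95, 2.64 and 2.86 in PPM1G shRNA libraries, against 0.381, 0.339 and 0.402 in control libraries, a 7.55-fold difference (two-sided exact permutation p = 0.10, the smallest possible; 0.14 adjusted over 7 ratios). In H2AC20 and H2BC21 it was the H2A gene that fell and the H2B gene that rose, and their ratio was 0.00920 ± 0.0029 in PPM1G shRNA and 0.0354 ± 0.0090 in control libraries (exact permutation p = 0.10). For H2BC17 and H2AC17, the third such pair with both genes tested, the ratio was 2.02 ± 0.45 in PPM1G shRNA and 1.35 ± 0.21 in control libraries, and the groups overlapped (exact permutation p = 0.20).

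**Figure D4:**
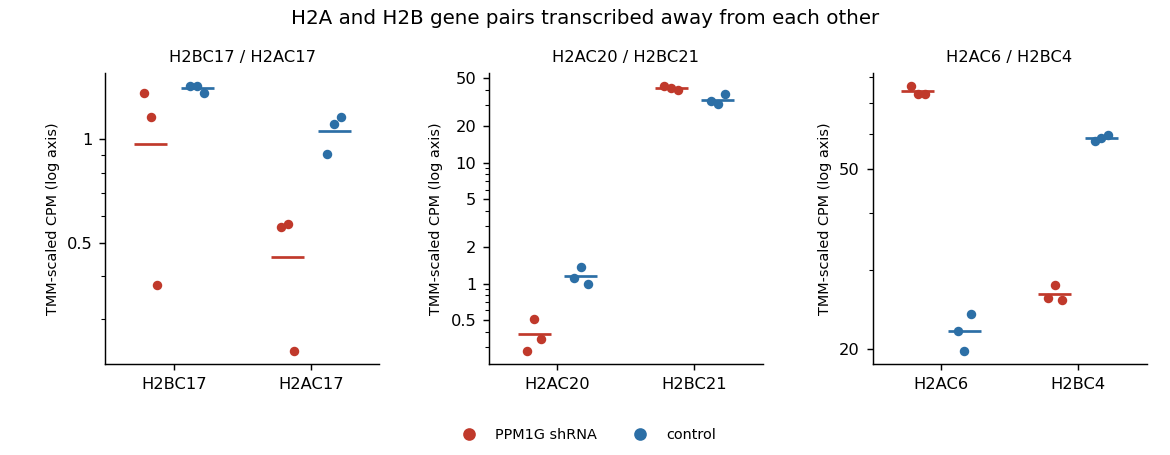
TMM-scaled CPM on log axes for the 3 head-to-head H2A and H2B gene pairs with both genes tested, PPM1G shRNA libraries in red left of control libraries in blue, 3 each, with lines at the means. In the right panel H2AC6 averages 74.5 CPM in PPM1G shRNA and 21.9 CPM in control libraries, whereas H2BC4 averages 26.5 CPM in PPM1G shRNA and 58.6 CPM in control libraries.

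Promoter windows of 300 bases (250 before to 50 after the start, RefSeq) were at hand for 59 of the 66 members. CCAAT, on either strand, stood in 39 of 46 replication-dependent promoters and in 35.6% of 27305 promoters of all genes. The octamer ATTTGCAT, the site known to be bound by the POU factor OCT1, stood in 13 of 16 H2BC, 5 of 8 H2AC and 0 of 16 H3C and H4C promoters, and in 1.82% of all promoters. Windows of head-to-head genes overlap, so a site can be counted for both genes. The octamers of H2AC6, H2AC17 and H2AC20 are the same sites as those of H2BC4, H2BC17 and H2BC21. TATAAA stood in 32 of 46 replication-dependent promoters (12.1% of all), and TTTGAA, the core of the cell cycle homology region, in 13 of 46 (15.6% of all). H2BC12 and H2BC4, which fell, and H2BC18 and H2BC21, which rose, all hold the octamer, whereas the window of H2BC5, which rose, does not. A match of letters is a description and shows neither binding nor its absence.

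Genes that supply, process and deposit histones were followed as lists. Over all genes tested 82.9% changed, with 41.5% rising and 41.3% falling, and the count of each list is read beside these shares. In the list of histone gene transcription and the histone locus body, the nuclear site of histone gene transcription, 4 of 10 tested genes rose and 6 fell (median log2 fold change −0.14). The cyclin gene CCNE2, whose product drives histone gene transcription with CDK2, had 1.08, 2.19 and 2.05 CPM in PPM1G shRNA libraries, against 29.2, 27.9 and 27.2 CPM in control libraries, and fell by 3.96 ± 0.13 SE (edgeR adjusted p = 3.8e-20). The S phase cyclin gene CCNA2 fell by 3.29 ± 0.07 SE and the kinase gene CDK2 by 2.28 ± 0.05 SE, with no overlap in either. POU2F1, which encodes OCT1, rose by 0.93 ± 0.05 SE, to 60.5 ± 2.9 CPM in PPM1G shRNA libraries, against 31.8 ± 1.3 CPM in control libraries. NPAT, the coactivator at the core of the locus body, hardly moved in size, at −0.13 ± 0.04 SE (edgeR adjusted p = 0.0092).

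In the list of histone pre-mRNA 3′ end processing and decay, 10 of 25 genes rose and 11 fell (median 0.01, as over all genes). The share that changed, 84%, was near the 82.9% of all genes. The cleavage factor genes CSTF2 (−1.62 ± 0.07 SE), CPSF3 (−1.12 ± 0.05 SE) and SYMPK (−0.88 ± 0.04 SE) and the exosome gene EXOSC10 (−0.87 ± 0.04 SE) had the largest changes. CPSF3 encodes the nuclease that cuts histone pre-mRNA, and it had 31.2, 34.6 and 30.5 CPM in PPM1G shRNA libraries, against 65.6 to 72.002 CPM in control libraries. SLBP, named here for its role and not by size, fell by 0.55 ± 0.04 SE, with 87.2 ± 0.73 CPM in PPM1G shRNA and 128 ± 1.4 CPM in control libraries (edgeR adjusted p = 2.4e-15).

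The list of replication-coupled H3-H4 chaperones and import mostly fell, with 12 falls and 2 rises among 14 genes and a median of −1.65. Not every gene on it encodes a chaperone that brings H3 and H4 to DNA, and CDAN1, 1 of the 2 that rose (0.35 ± 0.06 SE), was counted by its place on the list. Of all genes tested, 41.3% fell and 41.5% rose. The H3-H4 chaperone gene ASF1B had 4.64 ± 0.40 CPM in PPM1G shRNA and 79.2 ± 4.2 CPM in control libraries and fell by 4.10 ± 0.07 SE (edgeR adjusted p = 2.0e-31). The CAF-1 subunit genes CHAF1B (−3.59 ± 0.12 SE) and CHAF1A (−2.56 ± 0.04 SE) and the helicase and histone-binding gene MCM2 (−2.85 ± 0.05 SE) fell too. ASF1A, the paralog of ASF1B, rose by 0.53 ± 0.05 SE, with 68.0 CPM in PPM1G shRNA and 47.1 CPM in control libraries. MCM2, and CCNA2 of the histone gene transcription list, are also on the list of proliferation markers above.

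Among chaperones that place H3.3 outside replication, 3 of 7 rose and 4 fell (median −0.14). Within the HIRA complex, UBN2 (1.13 ± 0.06 SE) and UBN1 (0.79 ± 0.04 SE) rose, and HIRA (−0.77 ± 0.04 SE) and CABIN1 (−0.44 ± 0.04 SE) fell, all with edgeR adjusted p of 1.1e-10 or below. Among chaperones and remodellers of H2A-H2B, H2A.Z and macroH2A, 15 of 21 fell and 4 rose (median −0.59), against 41.3% and 41.5% of all genes. RUVBL2 (−1.69 ± 0.04 SE), ACTL6A (−1.32 ± 0.04 SE) and YEATS4 (−1.19 ± 0.09 SE) encode subunits of complexes that exchange H2A.Z, and ANP32E (−1.33 ± 0.05 SE) encodes a chaperone that removes it. CENPA, the centromeric H3 variant that the symbol rule leaves out, fell by 1.09 ± 0.11 SE, with 5.55 CPM in PPM1G shRNA and 11.9 CPM in control libraries, and its chaperone gene HJURP fell by 3.62 ± 0.06 SE, with 8.60 CPM in PPM1G shRNA and 105 CPM in control libraries.

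**Figure D5:**
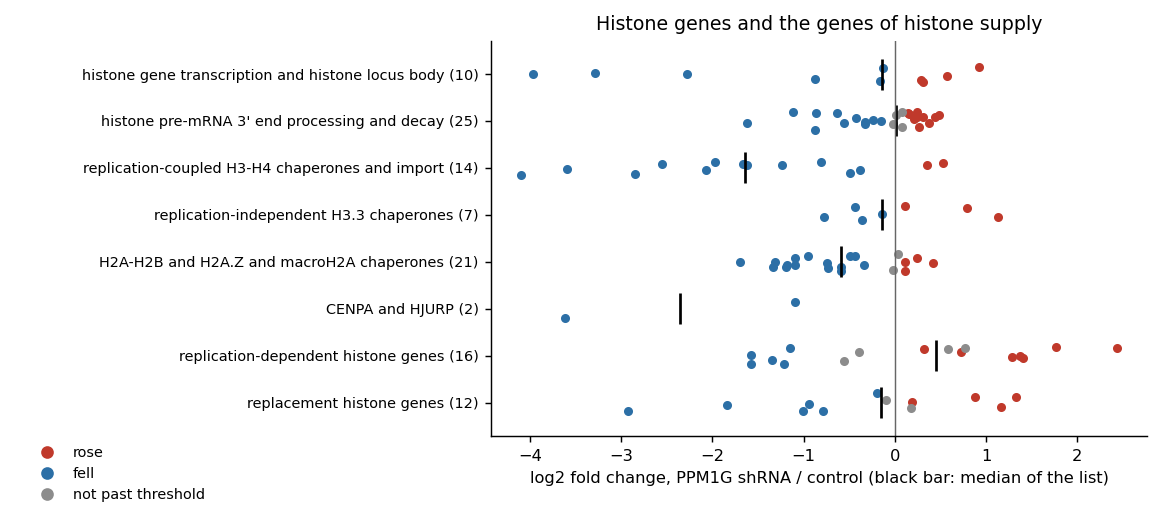
Log2 fold change of PPM1G shRNA over control libraries for each tested gene of the supply lists and of both histone classes, with the number tested in brackets and a black bar at the median. The list of replication-coupled H3-H4 chaperones and import has the lowest median of the lists with at least 7 genes, at −1.65. The replication-dependent histone genes have a median of 0.45 (−0.04 over the 10 members that met the count minimum in both groups) with members on both sides of 0.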

How the data were processed

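The authors' deposited count table holds unnormalized whole-number counts per gene and library. Their deposited FPKM are these counts scaled by gene length and library total. The library kit was a SMARTER mRNA kit (labels' protocols), and GRCh38 is named in the submitters' processing notes. No source used here gives the aligner, counting program or strand setting.

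Counts were tested with edgeR 4.0.16 (filterByExpr with its minimum of 10 counts, TMM factors, robust quasi-likelihood F-test, Benjamini-Hochberg adjustment over 13060 genes, threshold 0.05), checked on simulated data. SE is |log2 fold change| over the root of F. Positive values mean higher in PPM1G shRNA libraries. DESeq2 1.42.0 and limma 3.58.1 on log2(FPKM + 1) or log2(FPKM + 0.1) were alternatives. Libraries of a group differed beyond sampling noise (chi-square per degree of freedom 2.69 to 6.44), so each counted as 1 replicate, and p-values reflect only the spread between libraries, which can be technical.

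Given in full were, in each class, the 8 members highest in mean CPM and the 4 largest rises and falls past the threshold, and up to 4 genes per list. Some genes and ratios taken by these rules are not reported here. Members, classes, lists and markers were chosen with earlier results of these data known. RefSeq matched all 66 members by Entrez ID.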

Additional observations from a re-analysis of the deposited data

How the results depend on the processing

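No called gene or count reversed its direction under any alternative run. With a CPM of at least 1 required in 3 libraries, 2 replication-dependent members fell, against 5 with the default filter, because 9 members of the class were then tested in place of 16. Of the H2A-H2B, H2A.Z and macroH2A chaperones, 2 rose in DESeq2 and 2 to 3 when a library was left out, against 4 with all libraries; without control replicate 2 the count was 2. The other counts of genes that rose or fell stayed within 1.5 times. With library totals in place of TMM factors the median of all genes shifted by 0.10. The median of the replication-dependent members is not stable: it was −0.04 with no filter, −0.10 in DESeq2 and 0.77 without control replicate 2, against 0.45. That of the replacement members stayed negative, from −0.05 with library totals or in the limma fits to −0.48 with a CPM of at least 1, against −0.15. Of the tested members outside the calls, H1-4, H2AC18, H2AJ, H2BC17 and H4-16 passed under some alternatives. H4-16 passed with library totals (edgeR adjusted p = 0.033), upper-quartile factors (edgeR adjusted p = 0.046) without control replicate 2 (edgeR adjusted p = 0.012) and in both limma fits.

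The replicate numbers did not pair the samples: same-numbered libraries correlated at 0.047, 0.0051 and 0.046 in their deviations. A fit with the replicate number as a block called 10805 genes, against 10821 without it, and changed the call of no member. Genes with few counts, such as H4C15, H3C2 and MACROH2A2, are limited by depth.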
